A study of Mus musculus with 12 samples.

Results

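The HOX cluster genes are the 39 mouse genes of the Hoxa, Hoxb, Hoxc and Hoxd clusters, chosen by symbol (Hox, a cluster letter and a paralogue number) from the 25965 gene rows of the study. Of the members, 11 lie in Hoxa, 10 in Hoxb, 9 in Hoxc and 9 in Hoxd. The study asked how deletion of the epidermal growth factor receptor EGFR bears on hair shaft differentiation, and measured total RNA of sorted skin cells in 12 mouse libraries. The cells are labelled IFE, ORS (outer root sheath) and HFSC (hair follicle stem cells), with 2 control and 2 knockout libraries in each of these 3 compartments. Controls of every compartment carry the genotype written EGFR_fl_fl, the IFE and ORS knockouts EGFR_delta_ep and the HFSC knockouts EGFR_delta_LGR5. The labels name no promoter, Cre line or age, and do not say whether libraries of a group came from separate animals. The p-values therefore measure only the spread between these libraries, which may be technical in groups other than the ORS controls (see Xist below). Libraries are named here by the number that opens their titles. The IFE controls are E341 and E360, the IFE knockouts E358 and E359, the ORS controls E341 and E344, the ORS knockouts E358 and E359, the HFSC controls L94 and L136, and the HFSC knockouts L95 and L97. Levels are given as reads or as CPM, which is reads per 1e6 reads in genes after scaling between libraries.

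HOX genes encode transcription factors that bind DNA through a homeodomain, the product of a stretch of the gene called the homeobox. In each cluster the genes stand in a fixed order, and genes at matching places in the 4 clusters, the paralogues, share a number. In the embryo low-numbered genes are expressed in anterior regions and high-numbered genes in posterior and distal regions, and adult skin keeps a HOX pattern that depends on body site. HOX proteins bind DNA together with cofactors of the TALE class (PBX, MEIS and PREP), and Polycomb and Trithorax proteins hold the genes in a silent or active state. Among the members, Hoxc13 is the gene best known from hair: its product is a regulator of hair keratin genes, and its loss in mice or people gives defects of hair and nails.

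The homeoboxes of Hoxc13 and Hoxc8, which separated the compartments without overlap of ORS or HFSC with IFE, are shown to let them be compared. They are 180 bases each, 5′ to 3′, read from the GENCODE vM21 transcripts of the mm10 genome. Capitals mark the codons of the conserved tryptophan and phenylalanine stretch of the recognition helix, which contacts DNA.
Hoxc13: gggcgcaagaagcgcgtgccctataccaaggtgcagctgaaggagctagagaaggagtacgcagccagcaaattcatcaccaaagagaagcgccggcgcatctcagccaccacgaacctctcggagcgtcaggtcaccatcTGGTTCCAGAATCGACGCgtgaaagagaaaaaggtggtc
Hoxc8: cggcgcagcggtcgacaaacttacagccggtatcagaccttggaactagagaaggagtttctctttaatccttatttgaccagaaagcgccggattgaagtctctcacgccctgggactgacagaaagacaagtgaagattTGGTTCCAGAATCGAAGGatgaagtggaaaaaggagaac

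Across all 39 homeoboxes, paralogues with the same number had the same base at a median of 80.6% of positions (42 pairs), and other pairs at 60.6% (699 pairs). The homeobox of Hoxc13 had the same base as that of Hoxa13 at 77.2% of positions and as that of Hoxa7 at 53.3%. The transcripts of Hoxd3 and Hoxd4, which overlap on the genome, share an exact stretch of at least 380 bases, and those of Hoxc10 and Hoxc5 one of at least 160, so reads may be shared within these pairs. The next longest shared stretch, of Hoxa6 and Hoxb4, was at least 52 bases. The gene spans of 26 members overlap another gene row (the span of Hoxa3 covers Hoxa4, Hoxa5 and Hoxa6, for example), and whether the counting used strand is not given in the sources used here, so the separate values of such members are uncertain.

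RefSeq (GRCm38.p6) promoter entries were matched for 22 of the 39 members. Shown are the 250 bases before the start of Hoxb8 (chr11:96281655-96281904, plus strand) and Hoxd8 (chr2:74704365-74704614, plus strand), which are paralogues that carry the same short element at almost the same distance from the start. Capitals mark CCAAT, the CCAAT box, and TTTATNG, letters that HOX proteins of high paralogue number and caudal proteins can bind. Both strands were searched.
Hoxb8: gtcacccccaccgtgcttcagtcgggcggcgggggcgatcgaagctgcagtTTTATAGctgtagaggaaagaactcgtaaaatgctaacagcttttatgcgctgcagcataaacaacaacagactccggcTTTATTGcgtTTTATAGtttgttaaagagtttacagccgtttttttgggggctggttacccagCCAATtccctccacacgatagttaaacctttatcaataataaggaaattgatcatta
Hoxd8: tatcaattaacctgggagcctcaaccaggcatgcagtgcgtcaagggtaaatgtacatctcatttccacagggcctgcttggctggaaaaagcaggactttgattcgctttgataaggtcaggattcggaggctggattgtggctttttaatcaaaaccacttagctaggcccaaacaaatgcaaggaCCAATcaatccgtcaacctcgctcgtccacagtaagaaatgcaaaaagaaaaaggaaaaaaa
CCAAT begins 57 bases before the start of Hoxb8 and 62 before that of Hoxd8. It was found in 14 of 24 HOX entries (Hoxa10 and Hoxd11 have more than 1 promoter entry) and in 33.8% of all 32851 promoter entries of the same length. TTTATNG was in 2 of the 24 and in 9.81% of all, and TATAAA, which overlaps TTTATNG in Hoxb8 on the other strand, in 4 and in 12.4%. The HOX and PBX composite TGATTNAT was in 2 of the 24 and in 2.82% of all. The windows of Hoxa7 and Hoxa9 held none of the 4 motifs. A match is a description of letters and not a measured binding site.

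In units of 1e6, the IFE libraries held 11.4 to 13.2 reads in genes, the ORS libraries 24.7 to 27.7 and the HFSC libraries 11.5 to 16.8. The floor of 3 reads used for a count of 0 is then 0.107 to 0.268 CPM. The label of the IFE cells names the inner root sheath, but epidermal markers were high in them and inner root sheath keratins low or without a read. The sum of 8 inner root sheath markers was highest in IFE (875 to 1049 CPM, against 301 to 383 in ORS libraries and 437 to 607 in HFSC libraries), of which Gata3, also expressed in epidermis, made up 857 to 1010 CPM. Of the 7 others, Tchh, Krt27, Krt71 and Krt73 reached at most 23.3 CPM in an IFE library, and the keratins Krt25, Krt28 and Krt74 had 0 reads in all 4. With limma 7 of the 8 were tested. In ORS against IFE, Krt71 was called higher (log2 3.31 ± 0.91, adjusted p = 0.0246) and Gata3 lower, beside 19.4% of all genes called. In HFSC against IFE, Krt25, Krt28 and Krt71 were called higher (log2 3.80, 3.59 and 3.34) and Gata3 lower, beside 36.1%. The sum of 7 markers of the interfollicular epidermis was 6067 to 8327 CPM in IFE, 178 to 453 CPM in the ORS and 1979 to 2453 CPM in the HFSC libraries. Krt1, Krt10 and Krtdap led it in IFE, and Sbsn, at 1873 to 2289 CPM, in HFSC. The bulge marker Cd34 was at 1330 to 2150.4 CPM in HFSC, at most 5.88 CPM in ORS and without a read in IFE. Egfr had 0 and 4 reads in the IFE knockouts and 100 and 1463 in the ORS knockouts, against 1376 to 7781 in the controls of those compartments. The HFSC knockouts L95 and L97 kept 335 and 330 CPM of Egfr against 431 and 389 CPM in controls L94 and L136. Xist, the transcript of the inactive X, had 11 to 34 reads in both IFE controls and in E341 of ORS, 19 and 96 in the HFSC knockouts, and 5699 or more in the remaining libraries. In IFE and HFSC sex and genotype therefore cannot be told apart. The ORS controls E341 and E344 had 29 and 41490 Xist reads, and 6358 and 1 reads of the Y-linked gene Ddx3y. These 2 libraries thus differ in sex and are not from 1 animal. Fibroblasts also express HOX genes, and the sum of 8 fibroblast markers was 177 to 299 CPM in the IFE libraries, 76 to 122 CPM in the ORS and 30 to 83.2 CPM in the HFSC libraries. Of these, 5 had a read in IFE, where Dcn made up 127 to 279 CPM and Col3a1, Pdgfrb and Twist2 had no read. Between compartments 5 were tested with limma. Col1a1 was higher in ORS than in IFE (log2 4.34 ± 0.53, adjusted p = 0.000139), and 0 were called lower. In HFSC against IFE, Col1a1 was higher (log2 2.81 ± 0.53, adjusted p = 0.00141) and Dcn lower (log2 -6.47 ± 0.92, adjusted p = 0.000176). No other of the 5 was called, beside 19.4% and 36.1% of all genes. The listed markers thus differed in direction. The part of such cells in the HOX values was not tested, and in bulk RNA fewer cells of a type and less RNA per cell cannot be told apart.

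In the 3 compartments almost all HOX reads other than those of Hoxc13 came from the low and middle paralogue numbers. Of the 39 members, 17 had a read in all 12 libraries, and 10 had none in any: Hoxa11, Hoxa13, Hoxb13, Hoxc10, Hoxc11, Hoxd1, Hoxd10, Hoxd11, Hoxd12 and Hoxd13. Over all gene rows, 29.9% had no read in any library. The share of all rows with a read in all 12 is not given here, so the 17 and the 10 are not read as a result about the HOX members. Of the 27 members numbered 1 to 9, 26 reached 10 reads in at least 1 library, Hoxd1 being the exception. Of the 12 members numbered 10 to 13, 9 had no read at all. The 8 members numbered 10 to 12 gathered 9 reads over the 12 libraries, 8 of them in Hoxc12 and 1 in Hoxa10, while Hoxc13 alone gathered 10300. Hoxb1 had reads in 1 library (16 in IFE knockout E359), and Hoxd9 in HFSC control L94 (41) and HFSC knockout L97 (2).

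**Figure D1:**
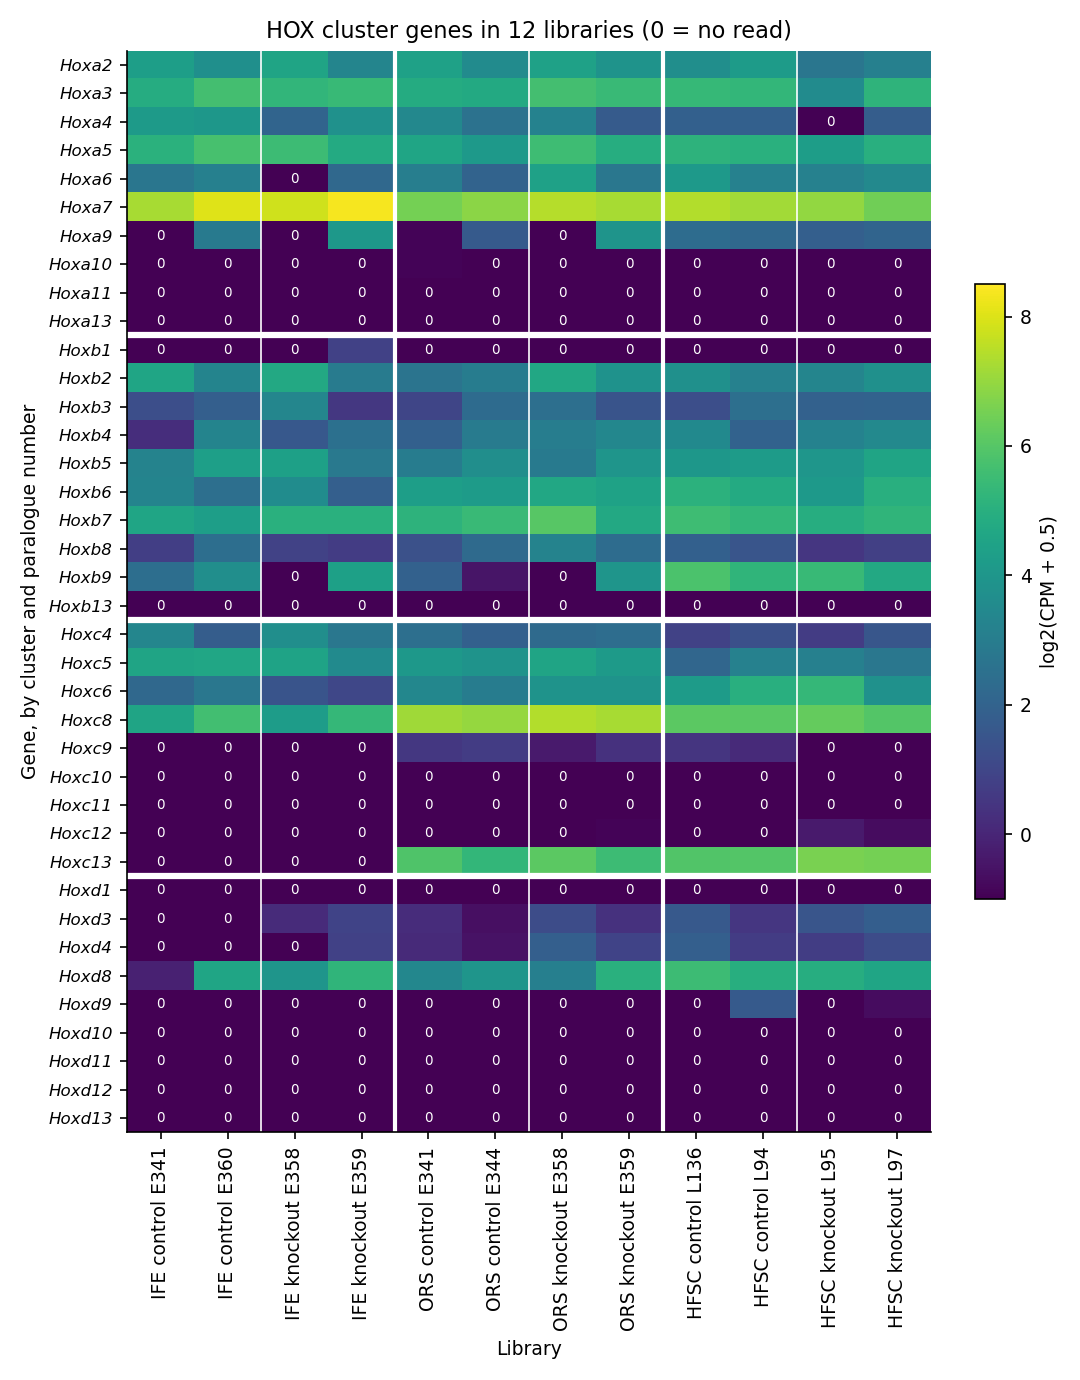
Level of the HOX genes described here (rows, by cluster and paralogue number) in the 12 libraries (columns, by compartment and genotype) as log2(CPM + 0.5), with 0 written where no read was counted. The bright rows are Hoxa7 and Hoxc8, Hoxc13 is dark in the 4 IFE libraries and bright in the other 8, and 10 rows are at 0 throughout.

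Levels between genes were compared per kilobase of merged exons. In IFE, Hoxa7 was highest at 52.6 to 116 CPM per kb and overlapped no other member, and among the members below it were Hoxa5 at 14.6 to 27.9 and Hoxb7 at 12.7 to 21 CPM per kb, which overlapped each other. In ORS, Hoxc8 (45.3 to 59.3 CPM per kb) and Hoxa7 (31.5 to 61) led and overlapped, followed by Hoxb7 (16.7 to 42.1), which overlapped Hoxa7, and Hoxc13 (15.6 to 27.5). In HFSC the order was Hoxa7 (30 to 59.1 CPM per kb), Hoxc13 (24.6 to 39.2), Hoxb7 (19.1 to 30.1) and Hoxc8 (21.7 to 26.7), and each overlapped the next. A member of paralogue number 7 or 8 thus had the highest mean level in each compartment.

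The summed HOX level overlapped between the compartments, with ranges of 408 to 669 CPM for IFE, 500.5 to 787 CPM for ORS and 530.5 to 671 CPM for HFSC, while its division among the clusters was not. Hoxa supplied 67.2% to 73.6% of HOX reads in IFE libraries, between 39% and 44.8% in ORS libraries and between 31.8% and 43.2% in HFSC libraries. Hoxc supplied 8.78% to 14.5% of them in IFE libraries, between 35.2% and 44.1% in ORS libraries and between 22.9% and 39.5% in HFSC libraries. For both clusters the IFE range did not overlap the others. The share of Hoxb was 11.7% to 18.1% for IFE, 14.8% to 19.3% for ORS and 22.7% to 27.3% for HFSC, and Hoxd stayed at or under 7.54% in every library. Shares within a library are free of the scaling between libraries, but a higher share of Hoxc lowers that of Hoxa by arithmetic.

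**Figure D2:**
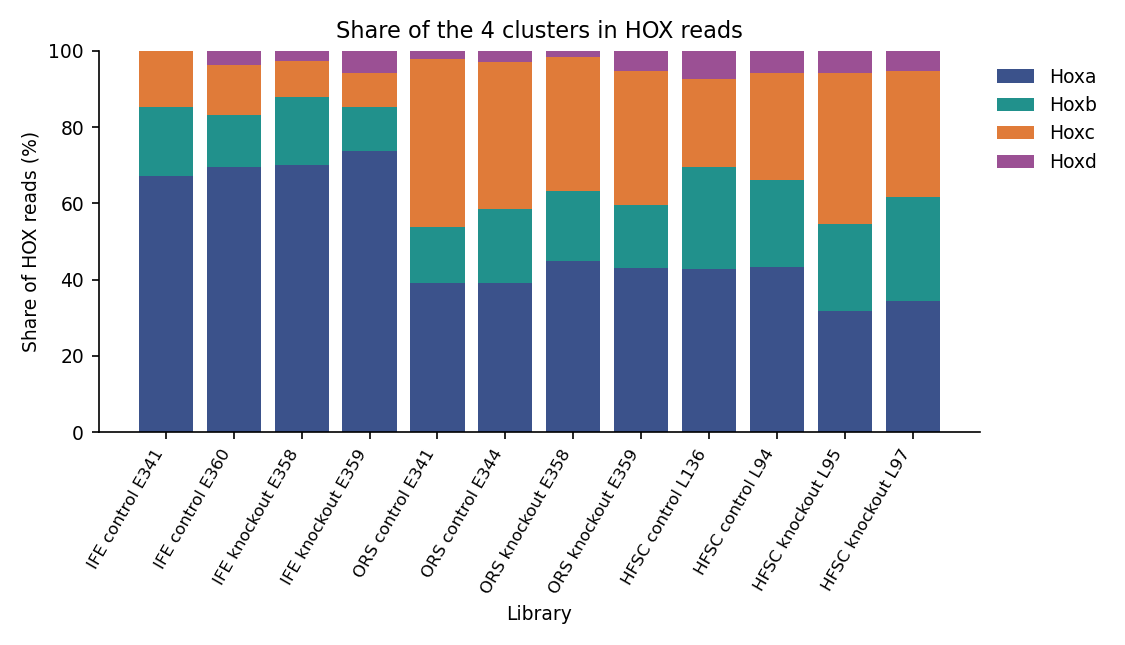
Share of the 4 clusters in the HOX reads of each library, in percent (y axis), for the 12 libraries (x axis). Hoxa fills 67.2% to 73.6% of each IFE bar and at most 44.8% of the others, where Hoxc fills 22.9% to 44.1%.

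Between compartments, tested with limma over both genotypes (4 against 4 libraries), 25 members passed the filter on low reads. In ORS against IFE, 6 of the 25 were called at an adjusted p under 0.05, 5 higher and 1 lower in ORS, against 19.4% of all 15251 genes tested (10.6% higher and 8.82% lower). In HFSC against IFE, 11 were called, 6 higher and 5 lower, against 36.1% of all genes (19.9% higher and 16.1% lower). In HFSC against ORS, 4 were called, 1 higher and 3 lower, against 28.7% (14.3% higher and 14.4% lower). These shares were set beside the members' counts without a test of the difference. By libraries that do not overlap, 5 members were above and 0 below in ORS against IFE (all genes 11.1% and 9.36%), 6 above and 4 below in HFSC against IFE (18.4% and 15.7%), and 2 above and 3 below in HFSC against ORS (16.8% and 17%). The median log2 fold change of the members was 0.11, 0.50 and 0.09 in that order, beside 0.12, 0.18 and 0.03 over all genes, and stayed at 0.11 and 0.50 when the members without a read in IFE, which lie above the median either way, were set to their lower bound. The first 2 comparisons share the IFE libraries and are not independent. The compartments also differ in title series (HFSC libraries have L numbers, the others E numbers, and IFE and ORS titles end differently), so that an effect of such a series and of the compartment cannot be told apart.

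Hoxc13, the hair regulator at the 5′ end of the Hoxc cluster (mm10, chromosome 15, 102921103 to 102928814, plus strand), set IFE apart from ORS and HFSC. It had 0 reads in all 4 IFE libraries. In ORS it stood at 58.1 and 38.5 CPM in controls E341 and E344 and at 67.6 and 44.9 CPM in knockouts E358 and E359, from 1002 to 1820 reads. In HFSC it stood at 62.2 and 60.5 CPM in controls L94 and L136 and at 96.5 and 90.6 CPM in knockouts L95 and L97. All 8 ORS and HFSC libraries were high, and none overlapped IFE. Against 3 reads per IFE library this is at least 210-fold higher in ORS (limma adjusted p = 3.66e-07) and at least 311-fold higher in HFSC (adjusted p = 1.32e-07). Of the 25965 gene rows, 17 (0.0655%) had 0 reads in all 4 IFE libraries and at least 100 in each of the other 8. Hoxc13 was the sole HOX gene among them. The pattern was written to describe Hoxc13, so its own match was fixed beforehand and the count is a description only. Between HFSC and ORS the log2 difference was 0.56 ± 0.37 (SE) with an adjusted p of 0.292, and it was -0.41 when reads were divided by the deposited library total, so no direction is given.

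Hoxc8, a middle gene of the same cluster (chromosome 15, 102990622 to 102994267, plus strand) known for thoracic patterning, was present everywhere but unequal. Its level was 22.7 and 48.3 CPM in IFE controls E341 and E360, and 18.5 and 39.8 CPM in knockouts E358 and E359. In ORS it was 142 and 128 CPM in controls E341 and E344, and 168 and 151 CPM in knockouts E358 and E359. The HFSC libraries lay between, at 67.5 and 68.5 CPM in controls L94 and L136 and 75.6 and 61.4 CPM in knockouts L95 and L97. The 3 compartments did not overlap. The mean was 4.56-fold higher in ORS than in IFE (log2 2.27 ± 0.29 SE, limma adjusted p = 0.000175). It was 2.11-fold higher in HFSC than in IFE (log2 1.17 ± 0.29, adjusted p = 0.00719). HFSC was below ORS by log2 -1.10 ± 0.29 (adjusted p = 0.0125).

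Hoxc6, 2 places from Hoxc8 by number, was low in IFE, at 1.52 to 6.25 CPM. It was at 7.49 to 14.2 CPM in the ORS libraries, at 31.1 and 18.2 CPM in HFSC controls L94 and L136, and at 39.7 and 13.7 CPM in HFSC knockouts L95 and L97. IFE did not overlap the other compartments, whereas ORS and HFSC overlapped. Hoxc6 was 3.23-fold higher in ORS than in IFE (log2 1.67 ± 0.47, adjusted p = 0.027) and 7.25-fold higher in HFSC (log2 2.73 ± 0.47, adjusted p = 0.000729). Hoxc9 was called in ORS against IFE on few reads: 27 and 29 in the ORS controls and 8 and 21 in the knockouts, with 0 in all IFE libraries. Against 3 reads per IFE library it was at least 3.17-fold higher, and the limma fit gave log2 1.32 (adjusted p = 0.048). It had 9 and 10 reads in the HFSC controls and 0 in both HFSC knockouts.

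**Figure D3:**
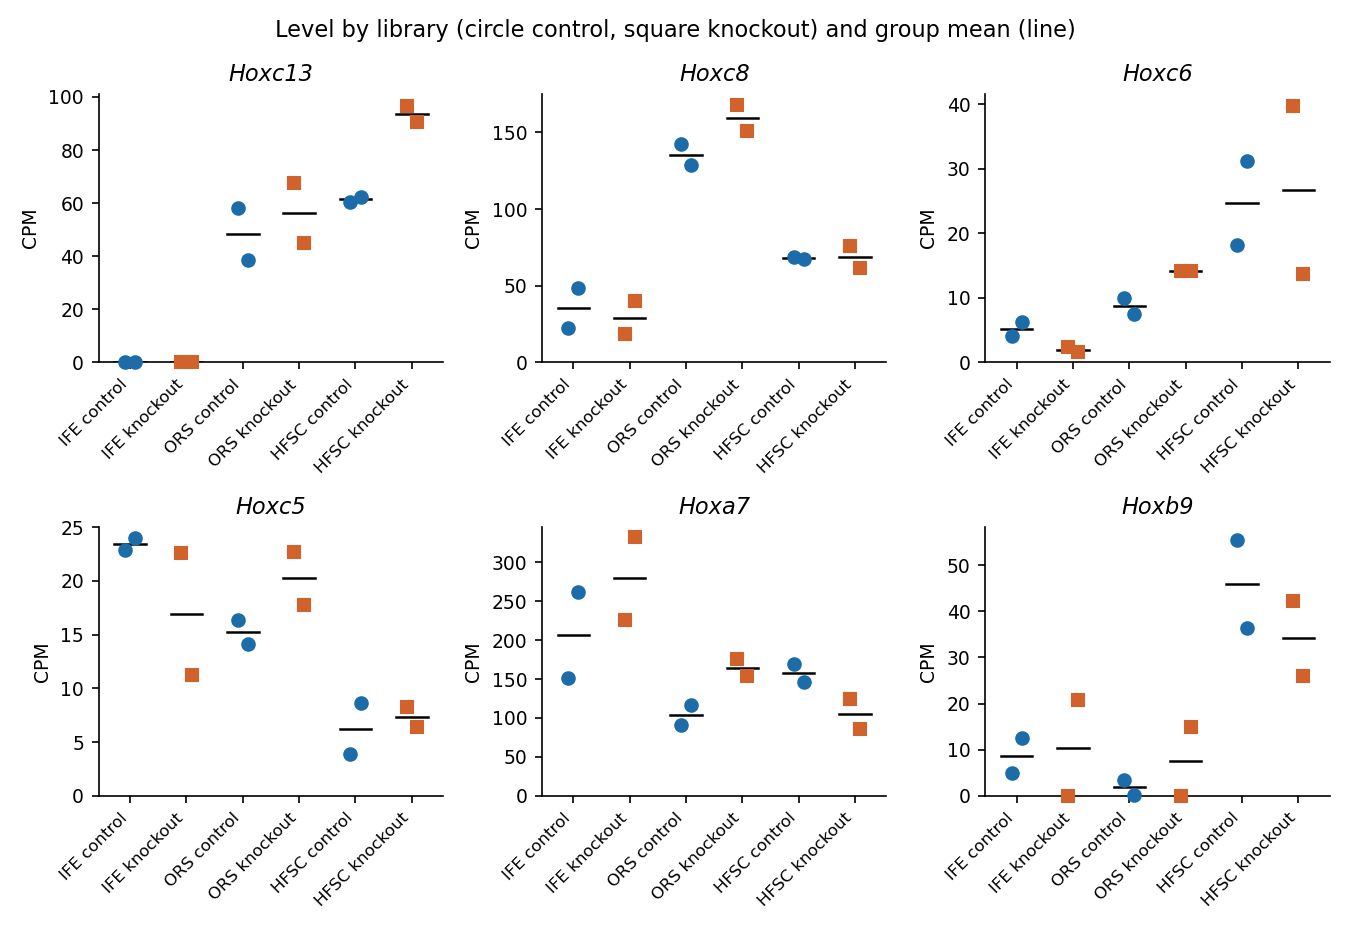
CPM (y axis, linear) of 6 HOX genes in the 12 libraries by group (x axis), with circles for control libraries, squares for knockout libraries and a line at the mean of the 2 libraries of a group. Hoxc13 is at 0 in IFE and at 38.5 to 96.5 CPM elsewhere, Hoxc8 separates the 3 compartments, and Hoxb9 is at 26.0 to 55.5 CPM in HFSC and at or under 20.7 CPM elsewhere.

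The 3′ genes of the Hoxc cluster ran the other way. Hoxc5 was at 11.3 to 24.0 CPM in IFE and 14.1 to 22.7 CPM in ORS, but at 8.62 and 3.90 CPM in HFSC controls L94 and L136 and 8.22 and 6.36 CPM in HFSC knockouts L95 and L97, below every other library. It was lower in HFSC than in IFE (log2 -1.50 ± 0.41, adjusted p = 0.0127) and than in ORS (log2 -1.36 ± 0.41, adjusted p = 0.0259). Hoxc4 was at 2.95 to 12.3 CPM in IFE and 1.10 to 2.43 CPM in HFSC (log2 -1.79 ± 0.56, adjusted p = 0.0257), without overlap. Hence in HFSC against IFE the Hoxc cluster held members called higher (Hoxc6, Hoxc8, Hoxc13) and lower (Hoxc4, Hoxc5), and those called lower were the 2 with the lowest numbers.

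In the Hoxa cluster, which is transcribed from the minus strand of chromosome 6, the called differences described here were lower levels in ORS or HFSC than in IFE. Hoxa7 (chromosome 6, 52214491 to 52221854), the member with the most reads in all, was at 151 and 262 CPM in IFE controls E341 and E360 and 225 and 333 CPM in IFE knockouts E358 and E359. ORS held 90.6 and 116 CPM in controls E341 and E344 and 175 and 154 CPM in knockouts E358 and E359. HFSC held 146 and 170.0 CPM in controls L94 and L136 and 125 and 86.3 CPM in knockouts L95 and L97. IFE was higher on average, but IFE control E341 lay within the range of both other compartments. The log2 difference was -0.85 ± 0.22 for ORS against IFE (adjusted p = 0.0168) and -0.87 ± 0.22 for HFSC against IFE (adjusted p = 0.00778). With the deposited library total as divisor, the first value was 0.12 (adjusted p = 0.658), where the median of all genes moved from 0.12 to 0.86. Relative to those medians Hoxa7 was at -0.97 and -0.75. Hoxa4 was at 3.72 to 17.6 CPM in IFE, and at 3.29 and 3.28 CPM in the HFSC controls and 0 and 2.99 CPM in the HFSC knockouts (log2 -2.37 ± 0.70, adjusted p = 0.0198).

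In the Hoxb cluster, Hoxb6 was at 3.19 to 11.7 CPM in IFE, 18.2 to 25.5 CPM in ORS and 17.3 to 33.5 CPM in HFSC. The IFE libraries did not overlap the others, and Hoxb6 was 2.90-fold higher in ORS (log2 1.61 ± 0.44, adjusted p = 0.0239) and 3.76-fold higher in HFSC (log2 1.95 ± 0.44, adjusted p = 0.00468). Its paralogue Hoxc6 differed in the same direction, and Hoxa6 was not called (2.08-fold and 2.39-fold by mean, adjusted p = 0.231 and 0.0788). Hoxb9 was the member called higher in HFSC than in ORS. It was at 36.5 and 55.5 CPM in HFSC controls L94 and L136 and at 42.2 and 26.0 CPM in HFSC knockouts L95 and L97. It was at 3.34 and 0.23 CPM in ORS controls E341 and E344 and at 0 and 14.9 CPM in ORS knockouts E358 and E359, which do not overlap HFSC (8.69-fold, log2 4.18 ± 1.21, adjusted p = 0.0223). The size rested on single ORS libraries: the log2 value was 2.95 without ORS knockout E358 and 5.41 without ORS knockout E359. In IFE it was at 4.87, 12.5, 0 and 20.7 CPM, also below every HFSC library, with an adjusted p of 0.0817.

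The Hoxd cluster was the quietest. Hoxd8 was its main transcript, with 0.42 to 36.7 CPM in IFE libraries, 8.03 to 32.4 CPM in ORS libraries and 23.3 to 44.7 CPM in HFSC libraries, and was not called in any comparison. Hoxd3 and Hoxd4, which share sequence, were called higher in HFSC than in IFE on low levels. Hoxd3 had 0, 0, 8 and 17 reads in IFE and 14 to 49 in HFSC (log2 1.61 ± 0.52, adjusted p = 0.0298), and Hoxd4 had 16 reads in IFE knockout E359 only and 17 to 36 in HFSC (log2 1.67 ± 0.57, adjusted p = 0.0388). The 12 tested members called in no compartment comparison were Hoxa2, Hoxa3, Hoxa5, Hoxa6, Hoxa9, Hoxb2, Hoxb3, Hoxb4, Hoxb5, Hoxb7, Hoxb8 and Hoxd8.

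Some calls held in every fit that left out 1 library, and others were lost without single libraries. Hoxc13 and Hoxc8 in ORS against IFE, Hoxc13, Hoxc6, Hoxb6, Hoxc8 and Hoxa7 in HFSC against IFE, and Hoxc8 in HFSC against ORS were called in all 8 fits that left out 1 library each. In ORS against IFE, Hoxa7 was lost without IFE control E360, ORS control E341 or ORS knockout E359 (adjusted p = 0.0645, 0.0705 and 0.0519). Hoxb6 was lost without IFE control E360 or any ORS library (adjusted p up to 0.0728), Hoxc6 without IFE control E341 or any ORS library (up to 0.0888), and Hoxc9 in 7 of the 8 fits, being called without ORS knockout E358 (up to 0.126). In HFSC against IFE, Hoxc5 was lost without HFSC control L136 (0.0522) and Hoxa4 without HFSC libraries L94, L136 or L95 or IFE knockout E359 (up to 0.0853). Hoxc4 was lost without L94, L136, L95, IFE control E341 or IFE knockout E358 (up to 0.0966), and Hoxd3 and Hoxd4 without L136, L95, L97, either IFE control or IFE knockout E358 (up to 0.107 and 0.135). In HFSC against ORS, Hoxb9 was lost without ORS control E344, ORS knockout E358 or any HFSC library (up to 0.101), and Hoxc5 without either ORS control, ORS knockout E358, L136, L95 or L97 (up to 0.095). A fit on the ORS and IFE libraries alone did not call Hoxc6, Hoxb6 or Hoxc9 (adjusted p = 0.0669, 0.0647 and 0.136), and limma-voom did not call Hoxc6 in ORS against IFE (0.111) or Hoxc4 in HFSC against IFE (0.0726). The deposited library total did not call Hoxd3 or Hoxd4 in HFSC against IFE (0.0743 and 0.107). Hoxd4 was not called either with a pseudocount of 2 CPM (0.0652) or in a fit on the HFSC and IFE libraries alone (0.0642), nor was Hoxc9 in ORS against IFE with that pseudocount (0.117) or with median-of-ratios size factors (0.0504). In HFSC against ORS, Hoxb9 was at 0.051 without a filter on low reads.

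Among the members of number 9, Hoxa9 and Hoxb9 varied widely between libraries of a group and ran alongside the title number. Hoxa9 had 0 reads in both IFE libraries E341 and E358, 1 read in ORS control E341 and 0 in ORS knockout E358. It had 76 and 205 reads in IFE libraries E360 and E359 and 71 and 384 in ORS libraries E344 and E359. Each library numbered E341 or E358 was thus below the other 4, across compartments and genotypes, a pattern found in 146 of the 14449 genes tested in these 8 libraries (1.01%). Hoxa7, of the same cluster, had 1803 or more reads in each of the 8. Hoxb9 had 0 reads in both libraries numbered E358, 58 and 94 in those numbered E341, and 259 and 394, the highest values, in those numbered E359. E358 was below the other 6 libraries in Hoxb9 alone among the 25 tested members (4.20% of all genes), and E359 was above them in Hoxa9, Hoxb9 and Hoxd8 (2.48% of all genes). Hoxa2, Hoxb2 and Hoxb3 were highest in both libraries numbered E358 (3.29% of all genes). Whether libraries with the same number come from the same animal or dissection is not stated in the labels, and this pattern was chosen after the values were seen.

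**Figure D4:**
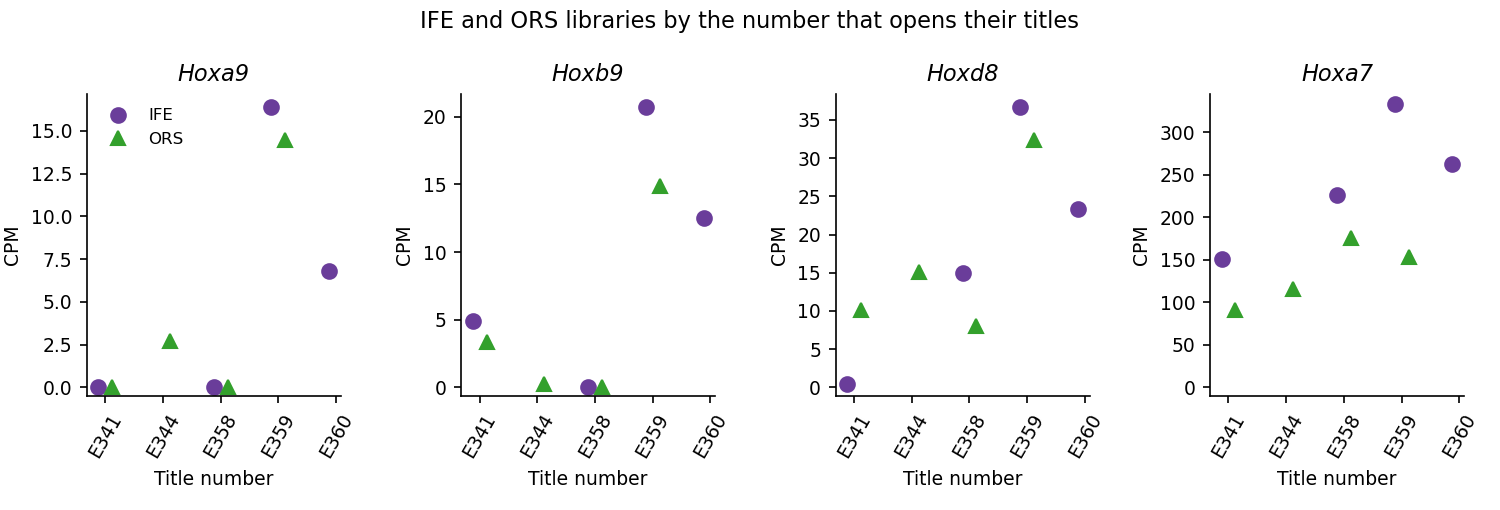
CPM (y axis, linear) of Hoxa9, Hoxb9, Hoxd8 and Hoxa7 in the 8 IFE (circles) and ORS (triangles) libraries, by the number that opens the title (x axis). Hoxa9 is at or near 0 in both libraries numbered E341 and both numbered E358, and Hoxb9 at 0 in both numbered E358, while Hoxa7 is present in all 8.

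Knockout and control libraries were compared within each compartment, and no HOX member was called in any. In IFE and ORS 25 members were tested and 0 called, and over all 14449 genes limma called 0%, so that these fits made no call for any gene. In HFSC 24 members were tested and 0 called, against 0.0363% of 13778 genes. At an unadjusted p under 0.05 there were 1 member in IFE, 0 in ORS and 2 in HFSC, beside 7.54%, 3.38% and 7.63% of all genes. The difference of the knockout effects between compartments was not called for any member or for any other gene in the 3 comparisons of compartments. At an unadjusted p under 0.05 there were 1 of 25 members for ORS minus IFE, 1 for HFSC minus IFE and 2 for HFSC minus ORS. Over all 15251 genes the shares were 6.79%, 7.28% and 4.47%. Alternative fits, limma-voom among them, called 0 members as well.

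Members that the compartment results turned on are given as values. Hoxc13 in HFSC was at 96.5 and 90.6 CPM in the knockouts against 62.2 and 60.5 CPM in the controls (log2 0.59 ± 0.21, interval 0.11 to 1.08, adjusted p = 0.56). In ORS the Hoxc13 values of knockouts and controls overlapped (log2 0.22 ± 0.81, interval -1.58 to 2.03, adjusted p = 1). Hoxa7 was at log2 0.46 ± 0.31 in IFE, 0.68 ± 0.31 in ORS and -0.61 ± 0.23 in HFSC, with adjusted p of 0.813, 1 and 0.591. Hoxc8 was at -0.28 ± 0.45 in IFE, 0.24 ± 0.45 in ORS and -0.01 ± 0.23 in HFSC, where the interval was -0.54 to 0.53.

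Counts of members whose knockout libraries lay wholly above or below the controls differed between compartments. In IFE, 3 of 25 members were above and 4 below, where 13.8% and 16.9% of all genes were. In ORS, 12 were above and 1 below, where 14.9% and 16.6% of all genes were. In HFSC, 1 of 24 was above and 9 below, where 19.1% and 18.8% of all genes were. The median log2 difference of the members was 0 in IFE, 0.50 in ORS and -0.33 in HFSC, beside -0.02, -0.03 and 0.00 over all genes. Members of a cluster are not independent of each other, and none of these differences passed a test.

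**Figure D5:**
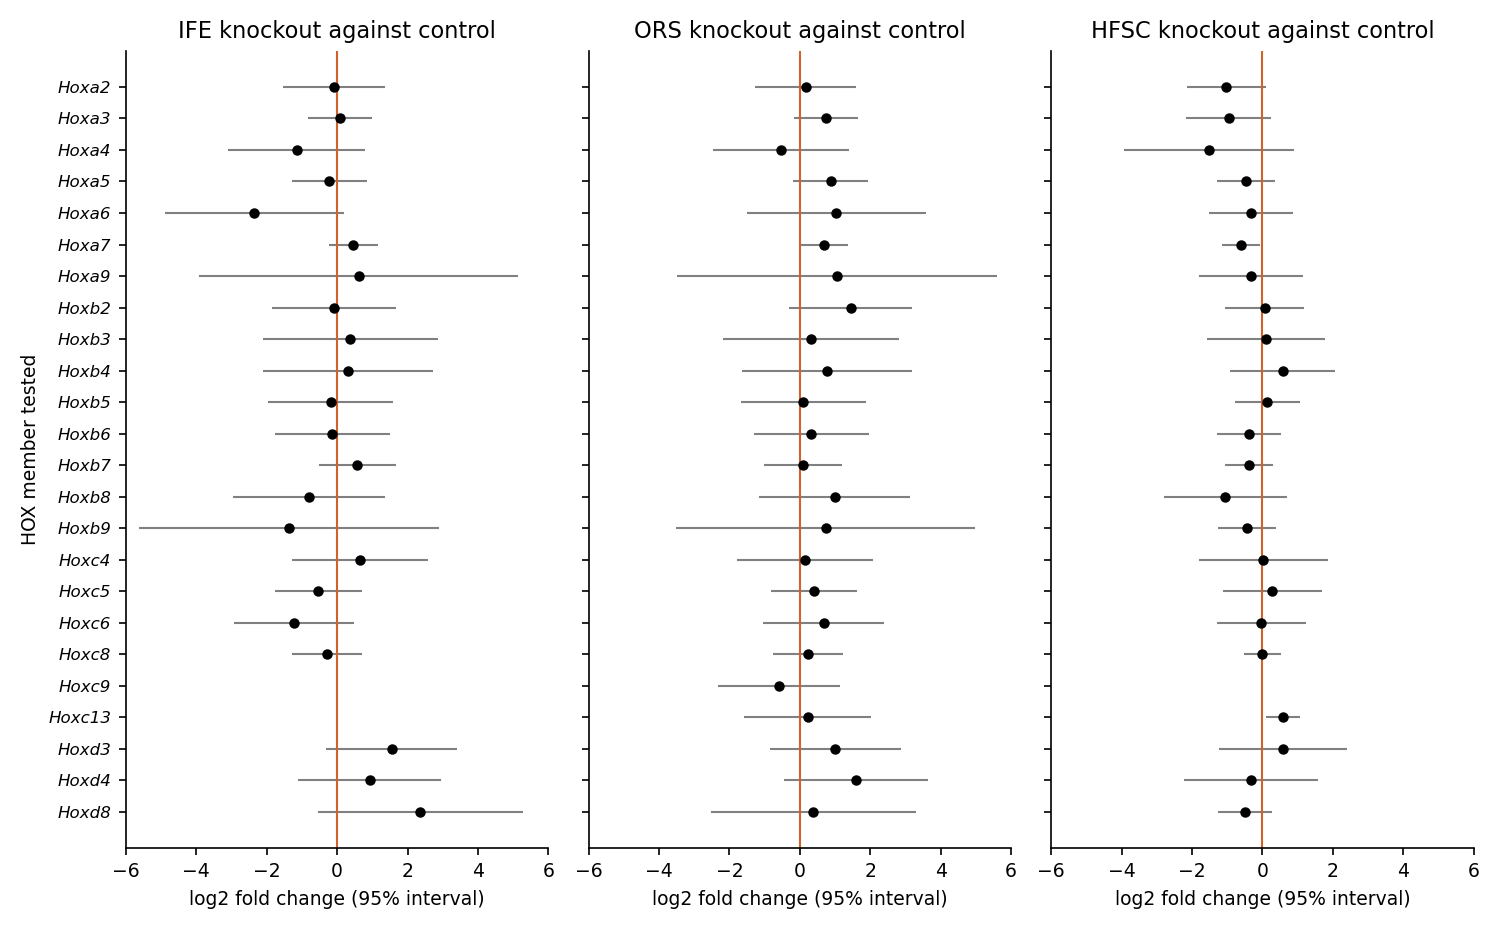
Log2 fold change of knockout against control (x axis, points) with its 95% interval (lines) for the HOX genes tested and described here (y axis), in IFE, ORS and HFSC. Genes not tested in a compartment, or without a read in it, are left blank, and no member has an adjusted p under 0.05.

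The genes that act with HOX proteins or on HOX genes were taken from lists made by function, and genes without a row are left out of the counts. The TALE list holds TGIF genes beside the PBX, MEIS and PREP cofactors named above, and all 11 of its genes were tested between compartments. In ORS against IFE, 2 were called higher (Pbx3 and Tgif1) and 1 lower (Meis2), and in HFSC against IFE 4 higher and 3 lower. Over all genes tested, 19.4% were called in the former and 36.1% in the latter comparison. Meis2, a HOX cofactor, had 23.7 to 79.2 CPM in IFE libraries but 0.25 to 5.20 CPM in ORS libraries and 0.39 to 6.01 CPM in HFSC libraries (log2 -4.47 ± 0.53 and -4.12 ± 0.53, adjusted p = 0.000114 and 8.76e-05). Its relative Meis1 was at 3.93 to 29.5 CPM in IFE and 58.8 to 129 CPM in HFSC (log2 2.68 ± 0.52, adjusted p = 0.00172). Pknox2, a PREP cofactor gene, had reads worth 16 to 28 CPM in HFSC and at most 0.27 CPM elsewhere (log2 5.57 ± 0.48 against IFE, adjusted p = 4.6e-06).

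Of 17 Polycomb genes, 1 was called higher and 0 lower in ORS against IFE, and 3 higher and 4 lower in HFSC against IFE, beside the same 19.4% and 36.1% of all genes. Ezh2, the H3K27 methyltransferase of cycling cells, had 85.9 to 101 CPM in IFE libraries, 93.4 to 131 CPM in ORS libraries and 15 to 41.2 CPM in HFSC libraries (log2 -1.84 ± 0.24 against IFE, adjusted p = 0.000107). Its paralogue Ezh1 was at 16.2 to 37.3, 13.4 to 59.9 and 133 to 170.4 CPM (log2 2.75 ± 0.39, adjusted p = 0.000181). Of 8 Trithorax and H3K27 demethylase genes, 1 was called higher and 0 lower in ORS against IFE and 1 higher and 1 lower in HFSC against IFE (all genes 19.4% and 36.1%), Kdm6b being the one higher in HFSC (log2 0.86 ± 0.18, adjusted p = 0.00308). Of 16 noncoding and flanking genes of the clusters, 8 were tested. The antisense RNA Hoxb3os had reads in all libraries (17.5 to 52.5 CPM) and Hotair, from the Hoxc cluster, 8 and 11 reads in the HFSC controls and 1 in an HFSC knockout (Hotair is named after its values were seen). None of the Cdx genes, the caudal activators of HOX clusters, had a read.

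Hair genes linked to HOXC13 were called in both directions between compartments. Of 17 listed, 11 were tested, with 0 called higher and 3 lower in ORS against IFE (all genes 10.6% and 8.82%) and 2 higher and 1 lower in HFSC against IFE (19.9% and 16.1%). In HFSC against ORS 4 were higher and 1 lower (14.3% and 14.4%). Foxn1, a hair regulator reported to act below HOXC13, was at 3.09 to 23.7 CPM in IFE, 0 to 1.09 CPM in ORS and 21.1 to 41.3 CPM in HFSC (log2 -4.08 ± 0.66 for ORS against IFE, adjusted p = 0.0011). Msx2 was at 1.85 to 11.7, 0.08 to 3.91 and 18.3 to 22.8 CPM in the same order. The hair keratin Krt32 had 9.43 to 28.9 CPM in IFE libraries, 3.24 to 11.8 CPM in ORS libraries and 18.5 to 49 CPM in HFSC libraries, and was higher in HFSC than in ORS (log2 2.23 ± 0.46, adjusted p = 0.00333). Lef1 ran otherwise and was the 1 gene called lower in both HFSC comparisons. It was lower in ORS and in HFSC than in IFE (log2 -3.21 ± 0.41 and -4.52 ± 0.41, adjusted p = 0.000197 and 6.87e-06). Against ORS its value in HFSC was log2 -1.31 ± 0.41 (adjusted p = 0.0325). Krt33b and Krt82 had no read in any library, and Krt31, Krt35 and Krt86 stayed at or under 6.46 CPM. In no compartment was a gene of these lists called between knockout and control libraries.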

How the data were processed

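The authors deposited 1 table of log2 values per library. The submitters' processing notes name Trim Galore, the mm10 build and DESeq2, without versions. An aligner or counter is not given in the sources used here. The log2 values the authors deposited are reads per 1e6 of a library total of 39.9 to 60.9 (in units of 1e6), with 0.9 read standing for a gene without reads. Whole reads were recovered from them (within 0.2 reads for at least 99.99% of genes). Reads in genes were scaled by TMM (trims of 30% and 5%), genes with at least 10 reads in 2 libraries and 15 in total were kept, and log2(CPM + 0.5) was tested with limma 3.58.1 in R 4.3.3 (trended, robust) with Benjamini-Hochberg adjustment over all genes. Compartments and differences of knockout effects were fitted on 12 libraries (6 residual degrees of freedom), IFE and ORS knockouts on 8 (4) and HFSC knockouts on 4 (2). Fold changes on this scale understate those of low genes. The fits were tested on simulated data. Members with at least 1 CPM in a group mean were to be described by library and the rest by reads, and other genes named only from function lists, where called or highest. The members and lists were chosen with earlier results of these data known. Floors rest on reads and cover counting error only. Intervals and SE are those of the limma fit and rest on the spread between libraries. Alternatives were scaling, pseudocount, filter, test, libraries in the fit, a title number block and leaving out each library. The values of 1 member and of 1 cofactor gene are not reported here, and both stay in the counts over all members and lists.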

Additional observations from a re-analysis of the deposited data

How the results depend on the processing

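All 21 called pairs of a HOX gene and a compartment comparison were refitted in 354 alternatives, and 285 kept the call and 353 the direction. The exception in direction was Hoxa7 in ORS against IFE, at 0.12 with the deposited library total. With that divisor the called members were 11 in ORS against IFE (11 higher, 0 lower, against 5 and 1) and 12 in HFSC against ORS (1 higher, 11 lower, against 1 and 3), and Hoxc13 in HFSC against ORS turned to -0.41. The median log2 fold change over all genes moved the same way, from 0.12 to 0.86 and from 0.03 to -0.74. The share of all genes called in these and the other alternative fits is not given here. Their counts are therefore not read as a result about the HOX members. ORS libraries have more of their total in genes (50.6% to 54.6%, against 26.9% to 29.6%), which this divisor does not remove. A fit on ORS and IFE alone called 3 members. Leaving out 1 library gave 2 to 6 called members in ORS against IFE, 6 to 12 in HFSC against IFE and 1 to 4 in HFSC against ORS. Every one of 89 alternative fits of the knockout effects and their differences called 0 members. Among those uncalled values, leaving out a library turned the sign of Hoxc8 in IFE (-0.82 to 0.27) and HFSC (-0.15 to 0.15) and of Hoxc13 in ORS (-0.064 to 0.52), and Hoxc8 in HFSC was at 0.0032 in a fit on all 12 libraries. A replicate block on the title number called 6, 11 and 4 members in the 3 compartment comparisons, as without it. Libraries with the same number deviated together only weakly (r = 0.05 for E341 and 0.06 for E358 and E359, over 14449 genes). With 2 libraries per group, E358 and E359 give the same r by construction. Xist reads in IFE and ORS were 34 and 29 for E341, 23925 and 43878 for E358, and 16454 and 38267 for E359. These values cannot decide whether libraries with the same number come from the same animal. The main fits did not pair them. For the 25 tested HOX members r was 0.50 for E341 and 0.61 for E358 and E359, and without Hoxa9 and Hoxb9 it was 0.50 and -0.14. At this depth a member under 0.107 to 0.268 CPM could not be told from 0.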
